A study of Homo sapiens with 16 samples.

Results

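Genes of collagens, laminins and other extracellular matrix proteins, 53 named genes of the 19970 protein-coding genes on chromosomes 1 to 22 and X, were followed through peak lists of H3K27me3 and H3K4me3 in multiple myeloma cells. The 53 were taken by name as a list of matrix genes, and all 53 were found in the RefSeq gene table. By role they were 7 fibrillar collagens, 11 other collagens, 10 laminin chains, 4 nidogens and basement membrane proteoglycans, 12 adhesive and counter-adhesive glycoproteins, 4 fibrillins and fibulins, 2 genes of the SPARC family and 3 lecticans. The cells, called TKO, derive from the myeloma line KMS-11. Their genotype label is WHSC1(+/-) and their cell type label is plasma cell. WHSC1 is an older name of NSD2, a histone methyltransferase of H3K36, and all groups carried this genotype. The groups were TKO cells labelled D1240A, TKO cells labelled F1295A (both substituted forms of NSD2), plain TKO cells, for which the labels name no form, and TKO cells labelled WT (wild type NSD2). Of 16 samples, each form had 2 for H3K27me3, 1 for H3K4me3 and 1 for IgG. The series asked whether mutated NSD2 changes histone marks. The labels do not say whether the cells of a form were a clone or a pool, nor how strongly each form was expressed.

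Collagens are triple-helical proteins. The fibrillar types make the cables of bone, skin and tendon, whereas type IV collagen, laminins, nidogens and the proteoglycans perlecan and agrin make the sheets called basement membranes. Most are made by fibroblasts, epithelial and endothelial cells rather than by plasma cells, which contact matrix in the bone marrow through receptors such as integrins and syndecans. H3K27me3 is written by Polycomb repressive complex 2 and forms broad domains over silent genes, and H3K4me3 forms narrower peaks at active or poised promoters.

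The promoters of 6 members whose call at the gene ends differed between forms, and that had a peak of that mark at the start in a form, are shown first. They are the 250 bases before the annotated start, on the strand of the gene, from RefSeq on GRCh38.p14, with every CpG dinucleotide in capitals. HSPG2 (chr1:21937311-21937560, minus strand) encodes perlecan, SPARC (chr5:151686916-151687165, minus strand) the matricellular protein osteonectin, and LAMA5 (chr20:62367313-62367562, minus strand) the laminin α5 chain. VCAN (chr5:83471494-83471743, plus strand) encodes versican, VTN (chr17:28370308-28370557, minus strand) vitronectin, and COL18A1 (chr21:45404915-45405164, plus strand) a basement membrane collagen from which endostatin is cut.
HSPG2: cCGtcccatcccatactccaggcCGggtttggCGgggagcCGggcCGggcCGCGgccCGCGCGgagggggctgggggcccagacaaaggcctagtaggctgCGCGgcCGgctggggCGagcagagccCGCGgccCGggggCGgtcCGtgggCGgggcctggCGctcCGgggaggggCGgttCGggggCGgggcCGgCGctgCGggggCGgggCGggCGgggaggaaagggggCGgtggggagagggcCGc
SPARC: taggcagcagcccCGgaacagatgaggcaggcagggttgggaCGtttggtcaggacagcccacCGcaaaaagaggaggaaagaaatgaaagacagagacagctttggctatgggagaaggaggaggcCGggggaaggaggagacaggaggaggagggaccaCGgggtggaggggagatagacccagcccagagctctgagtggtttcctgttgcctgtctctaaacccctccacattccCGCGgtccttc
LAMA5: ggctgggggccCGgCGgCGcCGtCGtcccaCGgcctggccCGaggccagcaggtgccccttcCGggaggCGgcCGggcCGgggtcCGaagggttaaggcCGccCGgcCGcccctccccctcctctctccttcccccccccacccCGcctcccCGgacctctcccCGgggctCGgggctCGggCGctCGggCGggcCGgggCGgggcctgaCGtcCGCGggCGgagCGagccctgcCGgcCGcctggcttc
VCAN: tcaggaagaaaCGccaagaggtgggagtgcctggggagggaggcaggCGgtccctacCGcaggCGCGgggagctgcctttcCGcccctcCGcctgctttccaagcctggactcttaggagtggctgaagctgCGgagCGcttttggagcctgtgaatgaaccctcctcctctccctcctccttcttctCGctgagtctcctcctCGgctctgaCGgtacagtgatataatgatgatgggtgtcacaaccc
VTN: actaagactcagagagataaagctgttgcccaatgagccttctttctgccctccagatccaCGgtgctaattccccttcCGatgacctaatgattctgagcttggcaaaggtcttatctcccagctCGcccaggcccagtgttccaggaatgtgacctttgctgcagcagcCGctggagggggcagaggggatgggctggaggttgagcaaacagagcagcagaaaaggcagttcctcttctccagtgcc
COL18A1: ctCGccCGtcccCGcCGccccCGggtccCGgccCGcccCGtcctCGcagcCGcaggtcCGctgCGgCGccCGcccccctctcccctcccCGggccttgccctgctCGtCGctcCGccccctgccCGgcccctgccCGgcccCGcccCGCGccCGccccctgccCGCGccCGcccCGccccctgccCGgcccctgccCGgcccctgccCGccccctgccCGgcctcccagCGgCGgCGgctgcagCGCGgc
HSPG2, LAMA5 and COL18A1 held 33, 32 and 37 CpG in this window, SPARC 7, VCAN 12 and VTN 4, against a median of 17.0 over the 15811 protein-coding genes with a promoter in the table.

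The measurements were 8 peak lists, 1 for each form and mark. Per the labels, the pair of H3K27me3 samples from each form shares 1 list, so no value of a single replicate could be compared, no difference below has a replicate check, and no p-values are given. The H3K27me3 lists held 2188 peaks in D1240A, 2083 in F1295A, 5881 in TKO and 3790 in WT, which covered 32.0, 38.8, 66.6 and 55.7 Mb. The H3K4me3 lists held 7712, 8239, 7396 and 8140 peaks in the same order of forms, which covered 29.1, 34.7, 22 and 30.2 Mb. Read depth is unknown. The lowest mean signal kept, the level below which 1% of a list lay, was 19.1 and 18.4 in the H3K27me3 lists of D1240A and F1295A, against 9.45 in TKO and 10.3 in WT. Whether depth or the calling threshold differed between the forms was not tested. Of 16 plasma cell identity genes, 11 carried H3K4me3 at a gene end in D1240A, 12 in F1295A, 10 in TKO and 12 in WT, and 1 or 2 carried H3K27me3. Of 15 markers of stromal and endothelial cells, the cell types that make most matrix, 1 or 2 carried H3K4me3 in each form. Over all genes 41.6%, 44.5%, 39.9% and 43.6% carried it in D1240A, F1295A, TKO and WT. H3K27me3 was at 0, 2, 3 and 1 of these markers in the same order (0%, 13.3%, 20.0% and 6.67%). Its shares of all genes were 5.36%, 5.79%, 10.0% and 9.57%, and those of the plasma cell genes 6.25%, 6.25%, 12.5% and 6.25%.

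H3K27me3 lay within 1 kb of an end of more matrix genes in WT than in the other forms, while with a window of 2.5 kb TKO and WT had equal counts. The call of a mark required a peak at a distance of at most 1 kb from an end of the gene record, at either side. By this rule 6 of 53 members were marked in D1240A (11.3%, against 5.36% of all protein-coding genes), 8 in F1295A (15.1%, against 5.79%), 10 in TKO (18.9%, against 10.0%) and 14 in WT (26.4%, against 9.57%). Over all genes, too, the shorter lists of D1240A and F1295A marked fewer than those of TKO and WT. Among the members TKO stood below WT in this window, although its list was the longest and its share of all genes was as high as that of WT. With a peak allowed up to 2.5 kb from an end, 9 members were marked in D1240A (17.0%, against 6.11% of all genes), 9 in F1295A (17.0%, against 6.45%), 14 in TKO (26.4%, against 11.6%) and 14 in WT (26.4%, against 10.8%). In any form 16 members were marked at an end (30.2%, against 11.8% of all genes) and 37 were marked in none. Of the 16, 6 were marked in all 4 forms and 10 in 1 to 3 forms. The split was similar over all genes, where 923 of 2360 were marked in all 4 forms and 1437 in 1 to 3 forms.

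**Figure D1:**
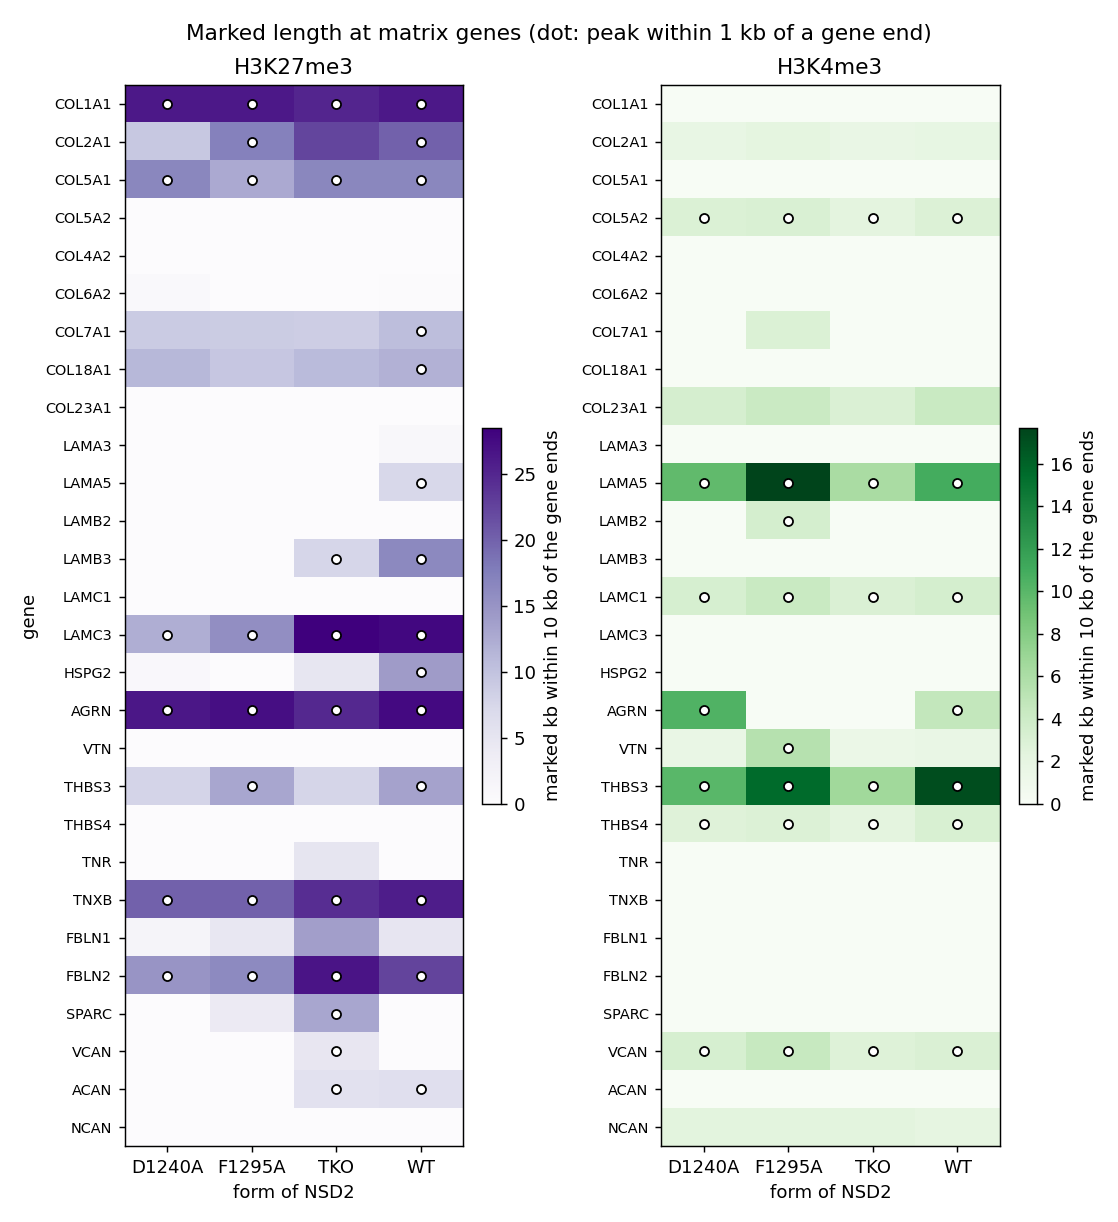
Marked length in kb within 10 kb of the gene ends, for each of the 28 matrix genes with a peak of either mark in or near the record (rows) in each form (columns), H3K27me3 on the left and H3K4me3 on the right, each with its own color scale. A dot means that a peak came within 1 kb of a gene end, which holds for 6, 8, 10 and 14 genes for H3K27me3 and for 7, 8, 6 and 7 genes for H3K4me3 in D1240A, F1295A, TKO and WT.

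A gene end is not always the promoter. A start was known for 41 of the 53 members, and at that start H3K27me3 was called for 1 member in D1240A (2.44%, against 3.63% of all genes with a known start), 1 in F1295A (2.44%, against 3.85%), 4 in TKO (9.76%, against 6.69%) and 6 in WT (14.6%, against 6.60%). The lone member with H3K27me3 at its start in D1240A and F1295A was COL5A1, which also had it in TKO and WT. Over the whole record the forms came closer together. A peak in the record or within 1 kb of it was found for 16 members in D1240A (30.2%, against 6.62% of all genes), 15 in F1295A (28.3%, against 7.00%), 20 in TKO (37.7%, against 12.8%) and 19 in WT (35.8%, against 11.3%). The members were long genes, with a median record of 85.3 kb against 24.2 kb for all protein-coding genes. How far length accounts for their share was not tested.

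Of the 7 fibrillar collagens, 3 carried H3K27me3 at an end in at least 1 form. COL1A1 (chr17:50184101-50201631), which encodes the α1 chain of type I collagen, had H3K27me3 over 92.5% of its record in D1240A, 92.7% in F1295A, 85.4% in TKO and 92.7% in WT. Its marked length within 10 kb of the ends was 26.2, 26.2, 25 and 26.2 kb in the same order, so the forms hardly differed at this gene. COL5A1 (chr9:134641803-134844843), for the α1 chain of type V collagen, which sets the width of type I fibrils, was covered over 58.0%, 61.4%, 55.2% and 55.3% of its record. The peak over the COL5A1 start was 32.8 kb wide in D1240A, 27.7 kb in F1295A, 31.6 kb in TKO and 32.9 kb in WT, and 6 to 8 peaks lay along the record. COL2A1 (chr12:47972967-48006212), the main collagen of cartilage, was covered over 53.2% of its record in D1240A, 91.7% in F1295A, 70.8% in TKO and 99.2% in WT. Its low-coordinate end lay 4.12 kb from the nearest peak in D1240A and 2.92 kb in TKO, so that end was called in F1295A and WT alone. No strand was given for COL1A1 or COL2A1, so which end is the promoter is not stated for them. The other fibrillar collagens COL1A2, COL3A1 and COL11A1 had no peak of either mark in the record or within 10 kb of it in any form, and COL5A2 had H3K4me3 alone.

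Of the 11 other collagens, COL7A1 and COL18A1 were marked at an end, both in WT alone and both at the start. COL7A1 (chr3:48564073-48595329, minus strand) encodes the anchoring fibrils that fasten skin epithelium to the dermis. A peak ran through its body in every form, over 50.5% of the record in D1240A, 60.2% in F1295A, 55.3% in TKO and 69.7% in WT. The edge of that peak lay 1019 bp into the gene in D1240A, 1140 bp in F1295A, 1359 bp in TKO and 442 bp in WT. The WT call at the COL7A1 start therefore rested on an edge less than 1 kb further out, and D1240A missed the 1 kb window by the smallest distance of any member. COL18A1 (chr21:45405165-45513720, plus strand) behaved alike, with the nearest edge 1282 bp into the gene in D1240A, 2944 bp in F1295A, 1605 bp in TKO and 646 bp in WT, and with 52.7%, 42.8%, 66.3% and 65.1% of the record covered. A separate domain upstream of COL18A1 stopped 7.51, 7.49, 7.48 and 7.44 kb before the start in the 4 forms, so the promoter printed above lay between domains in every list.

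COL4A2, COL6A2 and COL23A1 had H3K27me3 inside the gene and not at its ends. COL4A2, a chain of the type IV collagen network of basement membranes, had 5.53 kb in D1240A, 0 kb in F1295A, 5.09 kb in TKO and 6.45 kb in WT. COL6A2, a chain of the beaded type VI filaments, had 8.02, 0, 5.10 and 7.72 kb. Both thus lacked the mark in F1295A. COL23A1, a membrane-spanning collagen, had 12.2 kb in D1240A, 12.5 kb in F1295A, 15.6 kb in TKO and 9.87 kb in WT. The other 6 collagens of this group, COL4A1, COL6A1, COL6A3, COL12A1, COL14A1 and COL15A1, had no peak of either mark in or near the record.

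Laminins, the cross-shaped trimers on which basement membranes are built, differed among their chains. LAMC3 (chr9:131009174-131094473), for the γ3 chain, had H3K27me3 in every form, over 51.8% of the record in D1240A, 54.5% in F1295A, 73.3% in TKO and 73.3% in WT. At its low-coordinate end the nearest peak stood 312 bp away in D1240A, 968 bp in F1295A, 1265 bp in TKO and 60 bp in WT. TKO was therefore called from a different peak at the other end, which ranked at percentile 6.22 of its list by total signal, and F1295A was the member call closest to the 1 kb limit from inside. LAMB3 (chr1:209614870-209652425, minus strand), the β3 chain of the laminin of skin, had 0 kb in D1240A, 0 kb in F1295A, 7.58 kb in TKO and 16.3 kb in WT within 10 kb of its ends. Its nearest peaks in D1240A and F1295A were 617 and 615 kb away, so here the whole domain was missing from both lists rather than shortened. That domain sat at the far end of LAMB3 and not at its start, which was 36.2 kb from it in TKO and 24.6 kb in WT.

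LAMA5 (chr20:62309065-62367312, minus strand) had H3K27me3 at its start in WT alone. The WT peak was 7.31 kb wide and ran from 6.82 kb before the start to 0.485 kb after it, and the nearest peak was 42.5 kb away in D1240A, 42.7 kb in F1295A and 45.8 kb in TKO. By total signal, 35.0% of the WT peaks ranked at or below it. LAMA3, the α3 chain that pairs with LAMB3, had no mark in D1240A or F1295A, 8.99 kb in TKO and 9.67 kb in WT, and the TKO and WT peaks shared 0 kb. LAMC1 and LAMB2 had no H3K27me3, and LAMA1, LAMA2, LAMA4 and LAMB1 had no peak of either mark in any form.

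The basement membrane proteoglycans both carried H3K27me3, and the nidogens NID1 and NID2, which link laminin to collagen IV, had no peak of either mark. AGRN (chr1:1020120-1056116) encodes agrin and was covered over 77.1% of its record in D1240A, 77.2% in F1295A, 76.0% in TKO and 77.2% in WT, with both ends marked in all 4. HSPG2 (chr1:21822244-21937310, minus strand) was covered over 10.3%, 15.0%, 23.7% and 32.9% in the same order of forms. Around its start the WT list held a peak 27.3 kb wide, from 23.2 kb upstream to 4.05 kb into the gene. In TKO the same stretch held separate peaks of 14.1 and 4.26 kb, the nearer of which stopped 2.23 kb before the start, and the nearest peak was 9.20 kb away in D1240A and 12.8 kb in F1295A. Of all members HSPG2 had the largest difference in marked length between forms among those with a differing call at the start, with 0.806 kb in D1240A, 0 kb in F1295A, 4.86 kb in TKO and 14.1 kb in WT within 10 kb of its ends.

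**Figure D2:**
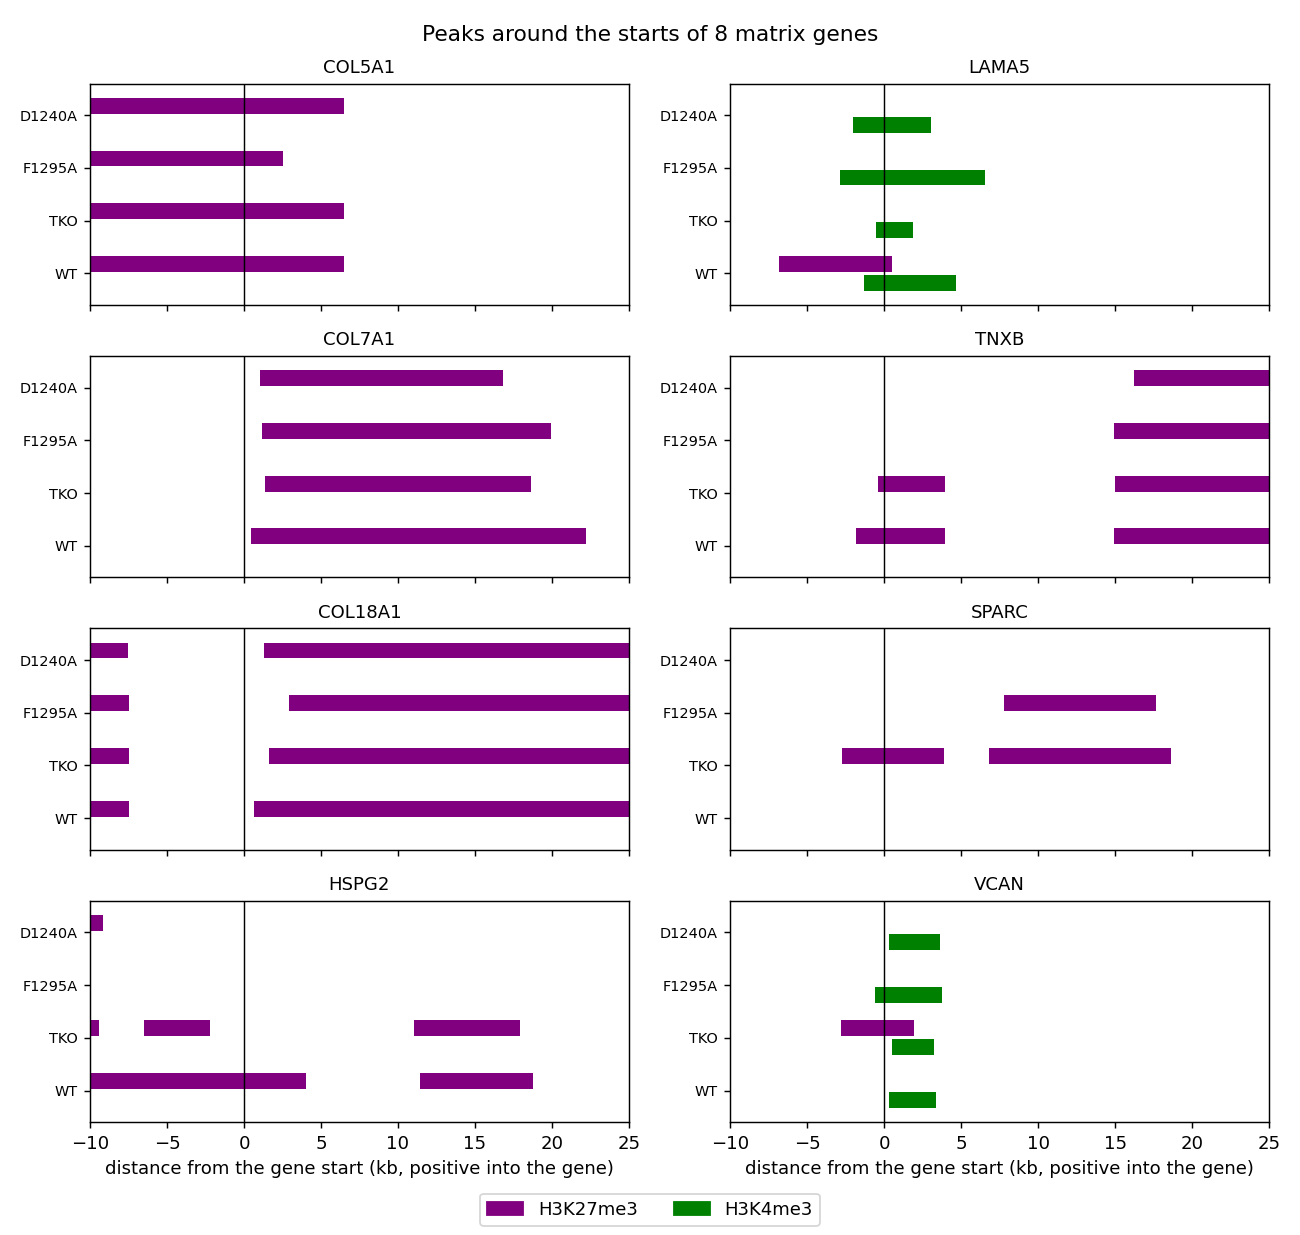
Peaks of H3K27me3 (purple bars) and H3K4me3 (green bars) from 10 kb before to 25 kb after the annotated start (vertical line) of 8 matrix genes, with a line of bars for each form. The H3K27me3 edge at COL7A1 lay 1019, 1140, 1359 and 442 bp into the gene in D1240A, F1295A, TKO and WT, and H3K27me3 covered the HSPG2 and LAMA5 starts in WT alone.

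Among the adhesive glycoproteins, THBS3 and TNXB carried H3K27me3. TNXB (chr6:32041153-32109338, minus strand), for tenascin-X, which binds collagen fibrils, was covered over 66.0% of its record in D1240A, 78.1% in F1295A, 83.8% in TKO and 83.9% in WT. The far end was marked in all 4 forms by a peak that also covered the CYP21A2 start, and the start was marked in TKO (4.32 kb peak) and WT (5.78 kb peak). This end of TNXB lies in a segment of which the genome holds a near copy, and the treatment of reads that fit both copies is not given in the sources used here. THBS3 (chr1:155195588-155209178, minus strand), thrombospondin 3, had 7.87 kb in D1240A, 13.0 kb in F1295A, 7.74 kb in TKO and 13.4 kb in WT, in a peak whose near edge lay 2.12, 1.44, 1.33 and 1.45 kb into the gene. In F1295A and WT the peak ran over the far end, and in D1240A and TKO it stopped 2.32 and 3.24 kb short of it. The forms that shared a pattern at THBS3 were thus D1240A with TKO and F1295A with WT. THBS3 lies on chromosome 1 in a stretch of 12 Mb that starts at 150 Mb and holds 337 of the 19970 protein-coding genes. Of those 337 genes, 51 in D1240A, 58 in F1295A, 95 in TKO and 76 in WT carried H3K27me3 at an end. Over all 19970 genes these numbers were 1071, 1156, 2001 and 1911, so the stretch was rich in the mark in every form. Of the 26 genes marked in F1295A and WT alone, as THBS3 was, 3 lay in that stretch. Of the 13 genes with the opposite pattern, marked in D1240A and TKO alone, 8 lay there. COL2A1, on chromosome 12, had the same H3K27me3 calls as THBS3. TNR, tenascin-R, had a peak near but outside its record in TKO alone (5.04 kb). THBS4 and VTN had H3K4me3 alone, and FN1 (fibronectin), THBS1, THBS2, TNC, SPP1, POSTN and TGFBI had no peak of either mark in or near the record.

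The fibulins, which bind elastic fibers and basement membranes, carried long domains, and the fibrillins FBN1 and FBN2 had no peak of either mark. FBLN2 (chr3:13549125-13638404, plus strand) was marked at its far end in every form by a peak of 16.4 kb in D1240A, 26.7 kb in F1295A, 28.9 kb in TKO and 28.9 kb in WT. A further FBLN2 peak near the start, 19.8 kb wide in TKO and 4.05 kb in WT, came to 1.87 and 1.78 kb of it and was not in the D1240A or F1295A list. FBLN1 (chr22:45502883-45601135, plus strand) was covered over 49.0% of its record in D1240A, 63.9% in F1295A, 70.2% in TKO and 72.6% in WT, yet none of its ends was marked. The nearest edge to the FBLN1 start was 8.24, 5.42, 4.65 and 8.42 kb into the gene, so a count at gene ends left out this gene with long domains in its body.

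SPARC and VCAN were the members with H3K27me3 at the start in TKO and not in WT. SPARC (chr5:151661096-151686915, minus strand) encodes a collagen-binding protein of bone and had 0 kb in D1240A, 4.03 kb in F1295A, 13.0 kb in TKO and 0 kb in WT within 10 kb of its ends. The TKO peak at the SPARC start ran from 2.71 kb before it to 3.90 kb after it, and a second TKO peak of 11.8 kb lay in the body. The F1295A peak of 9.85 kb lay where that body peak did, from 7.78 to 17.6 kb after the start. VCAN (chr5:83471744-83582302, plus strand), for the hyaluronan-binding proteoglycan versican, had a TKO peak of 4.78 kb over the start and no H3K27me3 peak in D1240A, F1295A or WT. These were low-ranking peaks of the longest list, at percentile 28.1 for SPARC and 11.0 for VCAN. ACAN (chr15:88803436-88875353, plus strand), the aggrecan gene, was marked at its far end by peaks of 5.70 kb in TKO and 6.04 kb in WT. A further ACAN peak in the body was in all 4 lists, 5.93, 6.90, 5.30 and 5.78 kb wide. NCAN and SPARCL1 had no H3K27me3.

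Set against WT, the lists of D1240A and F1295A had H3K27me3 at no member end that WT lacked. In D1240A 0 members were marked that were unmarked in WT (0.130% of all genes), and 8 were unmarked that were marked in WT (4.34% of all genes), namely COL2A1, COL7A1, COL18A1, LAMA5, LAMB3, HSPG2, THBS3 and ACAN. In F1295A 0 members were likewise marked that WT left unmarked (0.210% of all genes), and 6 were unmarked that WT marked (3.99%), the same list without COL2A1 and THBS3. In TKO 2 members were marked that WT did not mark, SPARC and VCAN (2.17% of all genes), and 6 were unmarked that WT marked, COL2A1, COL7A1, COL18A1, LAMA5, HSPG2 and THBS3 (1.72%). The share of WT-marked genes that lacked the call was 45.3% in D1240A, 41.7% in F1295A and 18.0% in TKO over all genes, against 8, 6 and 6 of the 14 WT-marked members. These comparisons share the WT list and so are not independent of each other. Between the substituted forms, 0 members were marked in D1240A and not F1295A (0.601% of all genes) and 2 in F1295A and not D1240A, COL2A1 and THBS3 (1.03%).

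At some of these members the other list still held a peak near the end that WT marked. Such a peak was not always the WT domain with a shifted edge. The TKO peak 2.12 kb from the high-coordinate end of COL2A1 lay wholly outside the WT peak. Of the 8 members marked in WT and not in D1240A, 4 had a D1240A peak within 5 kb of the same end, namely COL2A1, COL7A1, COL18A1 and THBS3. Of the 6 that F1295A lacked, 2 had one (COL7A1 and COL18A1), and of the 6 that TKO lacked, 5 had one, all but LAMA5. LAMA5 in all 3 lists, LAMB3 in D1240A and F1295A, and ACAN and HSPG2 in D1240A and F1295A were instead cases with no peak that near the marked end. In a stricter count, a gene was called unmarked only if it also had no peak within 10 kb of its ends. Members marked in WT and not in the other form then numbered 3 for D1240A (5.66%, against 3.14% of all genes). They numbered 4 for F1295A (7.55%, against 3.01%) and 1 for TKO (1.89%, against 0.756%).

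Counted in bases, most WT H3K27me3 at the members was also present in the other lists. Over the records and 10 kb on either side, the members held 504 kb of H3K27me3 in D1240A, 562 kb in F1295A, 694 kb in TKO and 696 kb in WT. D1240A covered 69.1% of the WT bases at the members, against 54.4% over the whole list. F1295A covered 74.9%, against 63.0% over the whole list, and TKO 84.9%, against 82.4%. In the other direction, 95.5% of the D1240A bases at the members, 92.7% of the F1295A bases and 85.2% of the TKO bases lay in WT peaks. The total at the members was thus nearly equal in TKO and WT, while the TKO list as a whole covered 1.20 times the bases of the WT list.

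**Figure D3:**
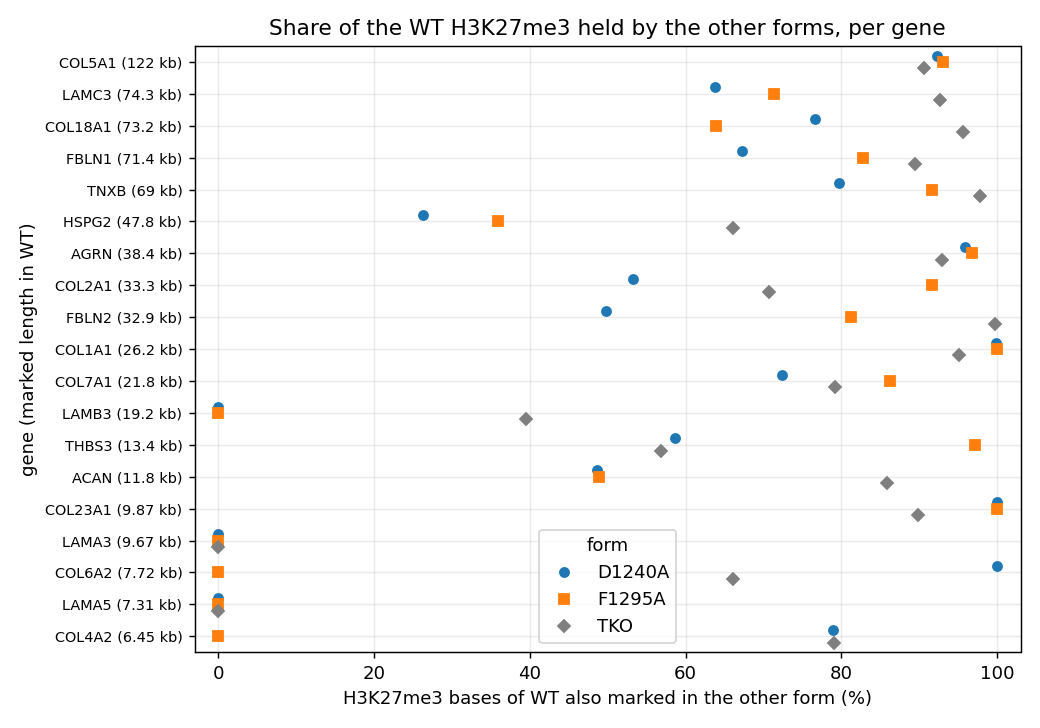
Share of the WT H3K27me3 bases, over each record and 10 kb on either side, that D1240A (circles), F1295A (squares) and TKO (diamonds) also marked, for each matrix gene with H3K27me3 in WT, sorted by its WT marked length in kb. COL1A1, COL5A1 and AGRN stand above 90% in all 3, whereas LAMA3 and LAMA5 stand at 0% in all 3.

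Of the WT bases at COL1A1, 99.9% were also marked in D1240A, 100% in F1295A and 95.1% in TKO, and at AGRN 95.9%, 96.8% and 92.9%. At HSPG2 the shares were 26.3%, 35.9% and 66.1%. At FBLN2 they were 49.8% in D1240A, 81.2% in F1295A and 99.7% in TKO. Thus even a gene called marked in every form could have less marked length in another list than in WT. At COL4A2 and COL6A2, unmarked at their ends throughout, the shares were 78.9% and 100% in D1240A and 0% in F1295A.

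End peaks of the members marked in all 4 forms mostly ranked high in their lists, with LAMC3 in TKO as an exception at percentile 6.22. Rank is given as the percentage of the peaks of a list with a total signal, the authors' value per peak, at or below that of the peak. For the 6 members marked in all 4 forms, the median percentile of the end peak was 86.5 in D1240A, 86.0 in F1295A, 90.3 in TKO and 95.5 in WT. For the members marked in 1 to 3 forms it was 45.5 in F1295A (2 members), 24.2 in TKO (4 members) and 74.7 in WT (8 members). Total signal adds up over the width of a peak, so rank depends on width as well as on height. A high rank did not require a long peak. A COL18A1 peak of 6.13 kb in TKO stood at percentile 94.0, in a list with a median width of 7.50 kb. COL18A1 at 94.6 and COL7A1 at 84.8 were high in the WT list even though the other forms lacked the call, and LAMA5 at 35.0 and ACAN at 31.7 were low.

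**Figure D4:**
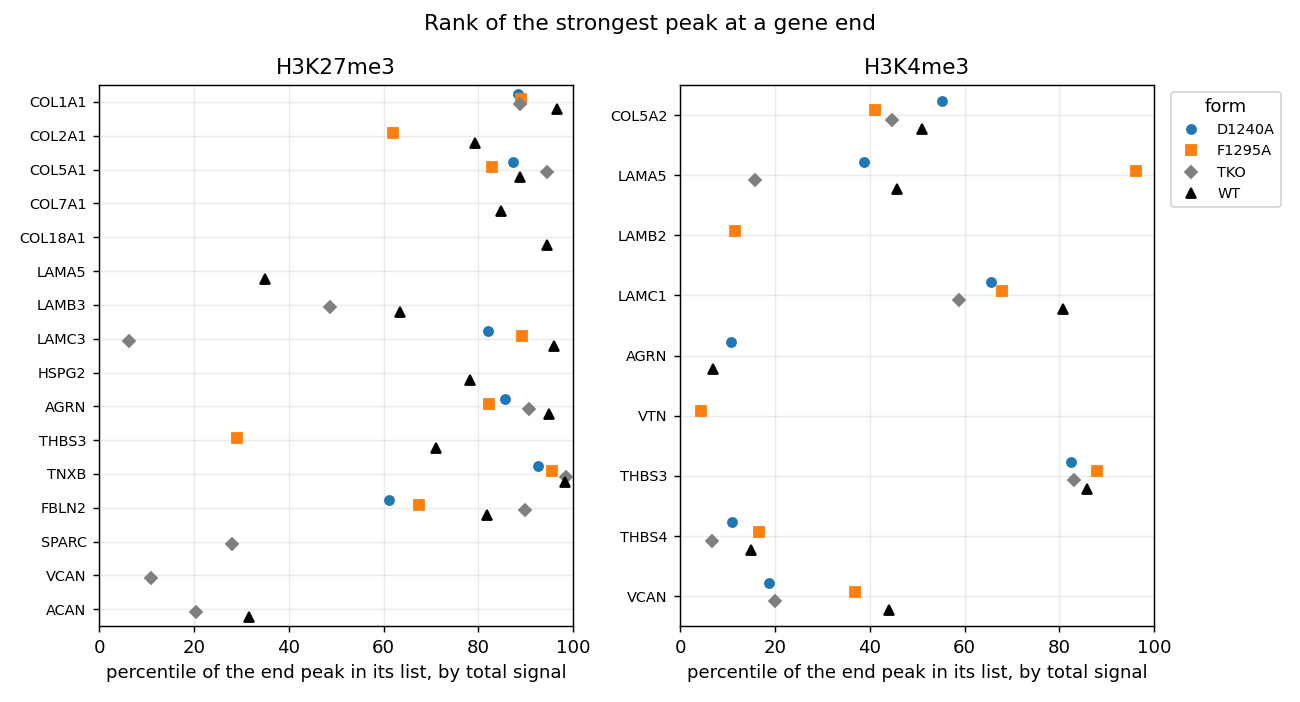
Percentile, within its own list by total signal, of the strongest peak within 1 kb of a gene end, for each matrix gene marked by H3K27me3 (left) or H3K4me3 (right) in each form. For H3K27me3 the genes marked in all 4 forms lie at medians from 86.0 to 95.5, with LAMC3 in TKO far below at 6.22, and for H3K4me3 the value of 96.2 for LAMA5 in F1295A belongs to the peak that holds the ADRM1 start.

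H3K4me3 was rare at matrix genes in every form. It was called at an end of 7 members in D1240A (13.2%, against 41.6% of all genes), 8 in F1295A (15.1%, against 44.5%), 6 in TKO (11.3%, against 39.9%) and 7 in WT (13.2%, against 43.6%). At the known starts it was called for 5, 6, 5 and 5 of 41 members, against 42.7%, 45.4%, 41.0% and 44.8% of all genes with a known start. Counting any peak in the record or within 1 kb of it left the members at 7, 8, 6 and 7, against 44.1%, 47.1%, 42.3% and 46.3% of all genes. The 6 members with H3K4me3 in all 4 forms were COL5A2, LAMA5, LAMC1, THBS3, THBS4 and VCAN.

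Several of these peaks also covered the start of a neighboring gene. The COL5A2 peak (2.91, 3.08, 2.24 and 2.84 kb in D1240A, F1295A, TKO and WT) held the WDR75 start, and the THBS4 peak (2.64, 2.85, 2.23 and 3.13 kb) held the MTX3 start. At THBS3 the peak at the start held the MTX1 start and the peak at the far end the MUC1 start. LAMC1, for the γ1 chain found in most laminins, and VCAN had peaks that held no other start in the table. The LAMC1 peak was 3.29 kb wide in D1240A, 4.28 kb in F1295A, 3.03 kb in TKO and 3.39 kb in WT, at percentiles 65.5, 68.0, 58.9 and 80.8 of its list. The VCAN peak was 3.31, 4.37, 2.74 and 3.04 kb wide in the same order. The peak over the LAMA5 start held no other start either and measured 5.12 kb in D1240A, 9.44 kb in F1295A, 2.41 kb in TKO and 6.00 kb in WT. In F1295A a separate peak that held the ADRM1 start also reached the far end of LAMA5. For all 6 genes the F1295A length within 10 kb of the ends exceeded that of TKO, as did the median over all genes with the mark, 4.11 kb in F1295A and 2.98 kb in TKO. COL2A1, COL23A1 and NCAN had H3K4me3 within 10 kb of an end, but not at it, in every form, and COL7A1 had it in F1295A. Each of those peaks held the start of another gene, TMEM106C, PHYKPL, NR2C2AP or PFKFB4.

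Calls of H3K4me3 differed between forms at LAMB2, VTN and AGRN. Neither direction of D1240A against WT held a member (0 in D1240A and not WT, 0.285% of all genes, and 0 in WT and not D1240A, 2.30%). F1295A marked 2 members that WT did not, LAMB2 and VTN (1.59% of all genes), and left 1 unmarked that WT marked, AGRN (0.716%). TKO marked 0 members that WT did not (0.325%) and left 1 unmarked, AGRN (4.09%). Between the substituted forms, AGRN was marked in D1240A and not F1295A (0.240% of all genes), and LAMB2 and VTN in F1295A and not D1240A (3.12%). The F1295A peak at LAMB2 (chr3:49121114-49133050, minus strand), the laminin β2 chain, was 3.41 kb wide, lay at the far end and held the USP19 start, at percentile 11.6 of the list. The one at VTN (chr17:28367284-28370307, minus strand) was 3.50 kb wide, began 622 bp before the start and held the SARM1 start, at percentile 4.33 of the list. AGRN had 10.4 kb in D1240A, 0 kb in F1295A, 0 kb in TKO and 4.67 kb in WT at its low-coordinate end, and these peaks ranked at percentile 10.6 in D1240A and 7.00 in WT. All 4 of these calls thus stood low in their lists, and those at LAMB2 and VTN lay over other genes' starts.

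Both marks at an end in the same form were found at 1 member in D1240A (0.726% of all genes), 1 in F1295A (0.971%), 1 in TKO (1.12%) and 3 in WT (1.59%). At AGRN the peaks of both marks overlapped by 7.59 kb in D1240A and 3.25 kb in WT. THBS3 had an overlap of 9.07 kb in F1295A and 5.28 kb in WT, summed over the separate H3K4me3 peaks at its far end and at its start. VCAN had one of 1.44 kb in TKO, and LAMA5 one of 1.79 kb in WT. In each case both marks were called at the same gene end, which for THBS3 was the far end. The data do not show whether the marks sat on the same chromosomes or in different cells.

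In any form 25 of the 53 members had no peak of either mark in the record or within 10 kb of its ends (47.2%, against 35.8% of all genes). No H3K27me3 was found there for 31 members (58.5%, against 79.5%), and no H3K4me3 for 40 (75.5%, against 47.0%). Among the 25 were genes for the most abundant matrix proteins of connective tissue and serum, COL1A2, COL3A1 and FN1. The absence of a peak says only that the list held none, since a signal under the authors' threshold is not listed. The 29 members with a known start and no mark there had a median of 21.0 CpG in the 250 bases before it, with a range over all 41 members from 1 (POSTN and SPARCL1) to 40 (COL4A2). The 8 members with H3K27me3 at the start in any form had a median of 20.5, and the 6 with H3K4me3 there 15.5. All protein-coding genes with no mark at the start had a median of 8, those with H3K27me3 there in any form 13.0, and those with H3K4me3 there in any form 23. Unmarked matrix promoters therefore held about as many CpG as the promoters that carried H3K4me3 in these cells.

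Genes that act with the members in making, cutting and sensing matrix showed other patterns. Of 25 further collagens, H3K27me3 was at an end of 4 in D1240A, 3 in F1295A, 5 in TKO and 7 in WT. These were 16.0%, 12.0%, 20.0% and 28.0%, against 5.36%, 5.79%, 10.0% and 9.57% of all genes. WT again held the most within 1 kb of an end, but not by other rules. Over the whole record the counts were 7, 5, 9 and 9 (28.0%, 20.0%, 36.0% and 36.0%, against 6.62%, 7.00%, 12.8% and 11.3%). At the 21 known starts they were 2, 1, 2 and 2 (9.52%, 4.76%, 9.52% and 9.52%, against 3.63%, 3.85%, 6.69% and 6.60%). COL26A1 was marked in WT alone, and COL5A3, a type V chain like COL5A1, had 10.8 kb in D1240A, 0 kb in F1295A, 9.75 kb in TKO and 12.4 kb in WT. Of 27 genes for collagen synthesis and crosslinking, 2, 3, 5 and 5 had H3K27me3 at an end in the same order of forms (7.41%, 11.1%, 18.5% and 18.5%). H3K4me3 was at 7, 11, 7 and 8 (25.9%, 40.7%, 25.9% and 29.6%, against 41.6%, 44.5%, 39.9% and 43.6% of all genes). Among these 27 genes the lysyl oxidase gene LOXL1 had H3K27me3 over 0, 9.41, 9.32 and 19.2 kb, counted within 10 kb of an end. Of 28 matrix proteases and inhibitors, 1, 2, 3 and 2 had H3K27me3 (3.57%, 7.14%, 10.7% and 7.14%), near the shares of all genes. H3K4me3 was at 5, 6, 4 and 5 of them (17.9%, 21.4%, 14.3% and 17.9%), below the shares of all genes.

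Counts at receptors for matrix hardly differed between forms. Of 30 receptor genes, H3K27me3 was at an end of 9 in D1240A, 10 in F1295A, 11 in TKO and 10 in WT, and H3K4me3 at an end of 11, 12, 11 and 12. For H3K27me3 these were 30.0%, 33.3%, 36.7% and 33.3% of the receptors, against 5.36%, 5.79%, 10.0% and 9.57% of all genes, and for H3K4me3 36.7%, 40.0%, 36.7% and 40.0%, against 41.6%, 44.5%, 39.9% and 43.6%. SDC1, the syndecan known on plasma cells as CD138, had 0 kb of H3K4me3 in D1240A, 3.20 kb in F1295A, 0 kb in TKO and 2.80 kb in WT, and it had H3K27me3 in all 4 forms. Of 53 other glycoproteins and proteoglycans, 9, 7, 10 and 8 had H3K27me3 (17.0%, 13.2%, 18.9% and 15.1%), so the count was not highest in WT there. The lectican gene BCAN had 37.4 kb of H3K27me3 in D1240A, 0 kb in F1295A, 37.4 kb in TKO and 0 kb in WT, and its neighbor HAPLN2 20.0, 0, 20.6 and 0 kb. COMP, a thrombospondin of cartilage, had 0, 0, 6.63 and 13.0 kb in the same order.

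**Figure D5:**
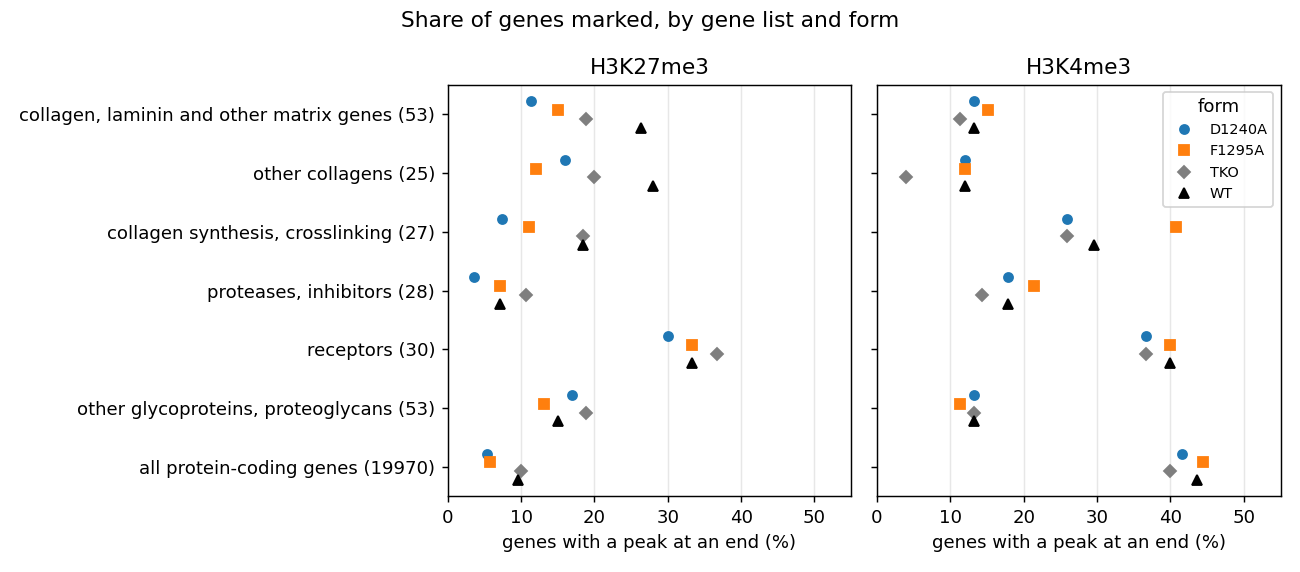
Percentage of the genes of each list with a peak within 1 kb of a gene end, for H3K27me3 (left) and H3K4me3 (right), with a symbol for each form and the number of genes in brackets. For the 53 matrix genes H3K27me3 runs from 11.3% in D1240A to 26.4% in WT, while H3K4me3 stays between 11.3% and 15.1%, below the 39.9% to 44.5% of all protein-coding genes.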

How the data were processed

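ChIPmentation, in which a transposase tags immunoprecipitated chromatin, was run in TKO cells labelled D1240A, F1295A or WT and in plain TKO cells. These groups are called the 4 forms here, and each form and mark has 1 deposited peak list. The submitters' processing notes name the build GRCh38 and, with no role or order, SEACR 1.3, Bowtie2 2.4.5, FastQC 0.11.4 and Trimmomatic 0.36. For peak calling, the mode, the threshold and the control were not stated. The deposited lists give the total signal (coverage) of each peak and its highest signal, which in the H3K27me3 lists is treated as a score because its scale is not stated. In the H3K27me3 lists the highest signal moved in steps of 0.5, and the mean signal exceeded the stated highest signal in 4.16% of peaks in D1240A, 3.50% in F1295A, 1.63% in TKO and 0.290% in WT. How the replicates were combined is unknown, so signal served only to rank or filter peaks within a list. The IgG samples were not analysed here.

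Peaks were compared with gene records of the RefSeq table for GRCh38.p14 by overlap of at least 1 bp, in Python 3.11.15 with numpy 2.4.6, pandas 2.3.3 and matplotlib 3.10.9, and the steps were tested on simulated peaks. The gene table gives no strand and no exons. A start was known for 41 of 53 members, from the RefSeq promoter table. The members and the gene lists were chosen with earlier results of these data known. Values per form are given for members whose call differed between forms, members with both marks and the 5 with the most marked bases per mark, and at most 4 genes per other list were named by their difference between forms. The 6 promoters, of members with a differing call of a mark and a peak of it at the start in a form, are at most 6 taken by the largest difference in marked bases within 10 kb of the ends, a narrowing made after the values were seen. Of 54 other glycoproteins and proteoglycans listed, 53 matched a protein-coding gene.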

Additional observations from a re-analysis of the deposited data

How the results depend on the processing

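Of 208 comparisons of 24 counts under 9 alternatives, 161 stayed within 1.5 times the reported count and 47 did not. Peaks at least 1 kb wide and joining peaks within 5 kb changed none beyond that. With a window of 2.5 kb, members with H3K27me3 in WT and not D1240A numbered 5 (9.43%, against 4.87% of all genes). Those in WT and not TKO numbered 2 (3.77%, against 1.78%). D1240A had 1 that F1295A lacked (1.89%, against 0.761%), and F1295A had 1 that D1240A lacked (1.89%, against 1.10%). With the annotated start where known, F1295A had 5 members with H3K27me3 (9.43%, against 4.87% of all genes). Of these, 1 was not marked in D1240A (1.89%, against 0.861%). F1295A also had 1 with H3K4me3 that WT and D1240A lacked (1.89%, against 1.45% and 2.93% of all genes). With the whole record, H3K27me3 marked 16 members in D1240A, 15 in F1295A and 20 in TKO. These were 30.2%, 28.3% and 37.7%, against 6.62%, 7.00% and 12.8% of all genes. There WT had 3 that D1240A and 1 that TKO lacked, F1295A had 1 that WT and 1 that D1240A lacked, and D1240A had 2 that F1295A lacked. In the stronger 50% of each list, TKO had 5 members with H3K27me3 and 0 that WT lacked, F1295A had 1 that D1240A lacked, H3K4me3 marked 3, 3, 2 and 3 members in D1240A, F1295A, TKO and WT, and F1295A had 1 that WT and D1240A lacked. With equal peak numbers by total signal, TKO had 5 members with H3K27me3 (9.43%, against 5.68% of all genes). It had 0 that WT lacked (0.846% of all genes). For H3K4me3, D1240A had 1 that WT lacked (1.89%, against 0.956% of all genes). F1295A had 1 that WT and D1240A lacked (1.89%, against 1.51% and 1.54%), and WT had 0 that F1295A or TKO lacked (1.07% and 2.08% of all genes). Equal numbers by highest signal, chosen after seeing the data, gave 5 members with H3K27me3 in TKO (9.43%, against 5.44% of all genes). TKO had 0 that WT lacked (0.821% of all genes). WT had 4 that D1240A lacked (7.55%, against 2.28%) and 2 that F1295A lacked (3.77%, against 2.00%). For H3K4me3 equal numbers by highest signal gave F1295A 1 that WT and D1240A lacked (1.89%, against 1.77% and 1.94% of all genes). TKO had 1 that WT lacked (1.89%, against 1.85%). D1240A and WT had 0 that F1295A lacked (1.39% of all genes for each), and WT had 0 that TKO lacked (2.54%). Where unmarked meant no peak within 10 kb, WT had 3 with H3K27me3 that D1240A lacked (5.66%, against 3.14% of all genes). It had 1 that TKO lacked (1.89%, against 0.756%), and F1295A had 0 that D1240A lacked (0.536% of all genes). F1295A had 1 with H3K4me3 that WT and D1240A lacked (1.89%, against 0.926% and 2.33% of all genes). The cause of these differences was not tested.

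No paired analysis was possible because both H3K27me3 replicates of a form share 1 list and the counts come from no test, and leaving out a replicate was not run for the same reason. The H3K27me3 calls of SPARC and VCAN in TKO, LAMA5 and ACAN in WT, and LAMB3, LAMC3 and ACAN in TKO were lost with the stronger 50% of each list and with equal peak numbers by total signal. So were the H3K4me3 calls of VTN in F1295A and AGRN in WT. Read depth is unknown, so an unmarked gene may carry signal below the threshold of its list.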
